A study of Mus musculus with 2 samples.

Results

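Genes of Wnt signalling were followed across cell classes of the mouse corticoseptal boundary at E16.5, with and without a conditional deletion of Tcf4. The set holds every symbol in the feature list that names a Wnt ligand, a Frizzled receptor, an R-spondin, an Lgr-type R-spondin receptor, a Dickkopf or secreted Frizzled-related protein, Axin2, Lef1, Tcf7l1 or Tcf7l2. This gave 48 of 32285 genes. Of these, 33 had at least 50 UMIs over the cells of both libraries and are described 1 by 1. A UMI, or unique molecular identifier, marks 1 captured transcript. The 33 were 8 ligands, 9 Frizzled receptors, 3 R-spondins, 3 R-spondin receptors, 6 Dickkopf or Sfrp genes, 3 Tcf or Lef factors and Axin2.

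The other 15 genes stayed below the minimum. Wnt1, Wnt8a and Wnt10b had no UMI in either library, and Wnt2, Wnt6, Wnt9b, Wnt10a, Wnt11, Wnt16, Fzd10, Rspo4, Dkk1 and Dkk4 had at most 31. The genes nearest to the limit were Lgr5 inside it, with 23 UMIs in cKO cells and 38 in WT cells, and outside it Wnt2b, with 21 in cKO and 21 in WT, and Wnt3a, with 22 in cKO and 19 in WT.

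Wnt proteins are secreted, lipid-modified ligands that bind Frizzled receptors, in the canonical branch together with an Lrp co-receptor. The signal stabilises beta-catenin, which joins Tcf and Lef factors on target genes such as Axin2, itself an inhibitor of the pathway. R-spondins bind Lgr receptors and keep Frizzled proteins on the cell surface, while secreted Sfrp proteins bind Wnt ligands and most Dickkopf proteins block the co-receptor. In the embryonic forebrain the cortical hem, at the dorsal midline, is a known source of Wnt ligands for the hippocampal and cortical primordium. The gene deleted here, Tcf4, encodes a bHLH E-protein and is not Tcf7l2, the Wnt effector that shares its older protein name.

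The series compared Tcf4f/f;Emx1Cre embryos, called cKO here, with wildtype embryos (WT), 1 library each, both at E16.5. Emx1 drives Cre in the progenitors that give rise to cortex, so that GABAergic neurons, which are born in the ventral telencephalon, and vascular cells lie mostly outside its lineage. The labels give neither the number of embryos per library nor the alleles of the controls beyond their being wildtype. The cKO library held 121321247 UMIs and the WT library 116998498. After filtering there were 10142 cKO cells with a median of 8152 UMIs and 8634 WT cells with a median of 9660. The libraries had 21 cell barcodes in common, 0.207% of those of cKO and 0.243% of those of WT. Tcf4 itself was at 1900 CPM in cKO and 2711 CPM in WT glutamatergic neurons, at 1789 CPM in cKO and 2693 CPM in WT intermediate progenitors, at 997 CPM in cKO and 1217 CPM in WT astroglia, and at 554 CPM in cKO and 611 CPM in WT GABAergic neurons. Since 3' ends are counted and no label names the floxed exon, these UMIs do not measure the remaining protein.

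Levels are UMIs of a gene per 1000000 UMIs of a class in 1 library (CPM). Cells were clustered without the Wnt genes and without Tcf4, so that the levels described here did not draw the clusters. With 1 library per genotype there is no replicate and no test of any difference. Every 95% interval below (Poisson for a level, conditional binomial for a ratio of cKO over WT, Clopper-Pearson for a share of cells) covers counting error only. A gene was compared in a class if it had at least 50 UMIs there, and a ratio of at least 1.5, or its inverse, was counted as past the fold. The 5 classes with at least 100 cells per library were astroglia (the radial glia and astrocyte lineage, with 1619 cKO and 1658 WT cells), cycling progenitors (1139 cKO and 1079 WT cells), intermediate progenitors (1570 cKO and 1005 WT cells), glutamatergic neurons (1465 cKO and 1468 WT cells) and GABAergic neurons (2516 cKO and 2141 WT cells).

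The libraries stood apart in 1 class. The glutamatergic neurons of cKO were in clusters 11, 12 and 25, with 661, 565 and 229 cKO cells against 3, 7 and 10 WT cells. Those of WT were in clusters 15, 16 and 18, with 5, 3 and 2 cKO cells against 530, 469 and 449 WT cells. Unnamed cluster 14, with 548 cKO and 17 WT cells, was nearest to glutamatergic neurons by its markers, and had Cyp26b1 and Zfp385b among its leading genes, as had WT cluster 18. In this class, genotype, library and neuron type cannot be told apart. Its values are therefore given by cluster, and also with the unnamed clusters nearest to it added, which makes 2319 cKO and 1622 WT cells.

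For 27 of the 33 genes, the class with the highest level among the 5 was the same in the cKO and the WT library. In 12 of these 27 the interval of that class lay apart from the next in both libraries. Smaller classes and unnamed clusters were left out, and some held more, as WT Cajal-Retzius cells did for Rspo3. Astroglia were highest for 18 genes in both libraries, cycling progenitors for 5, intermediate progenitors for 3 (Fzd3, Fzd2 and Wnt5a) and glutamatergic neurons for Rspo3 alone. The 6 genes whose highest class differed were Axin2, Sfrp2, Wnt7b, Wnt4, Wnt9a and Lgr5.

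**Figure D1:**
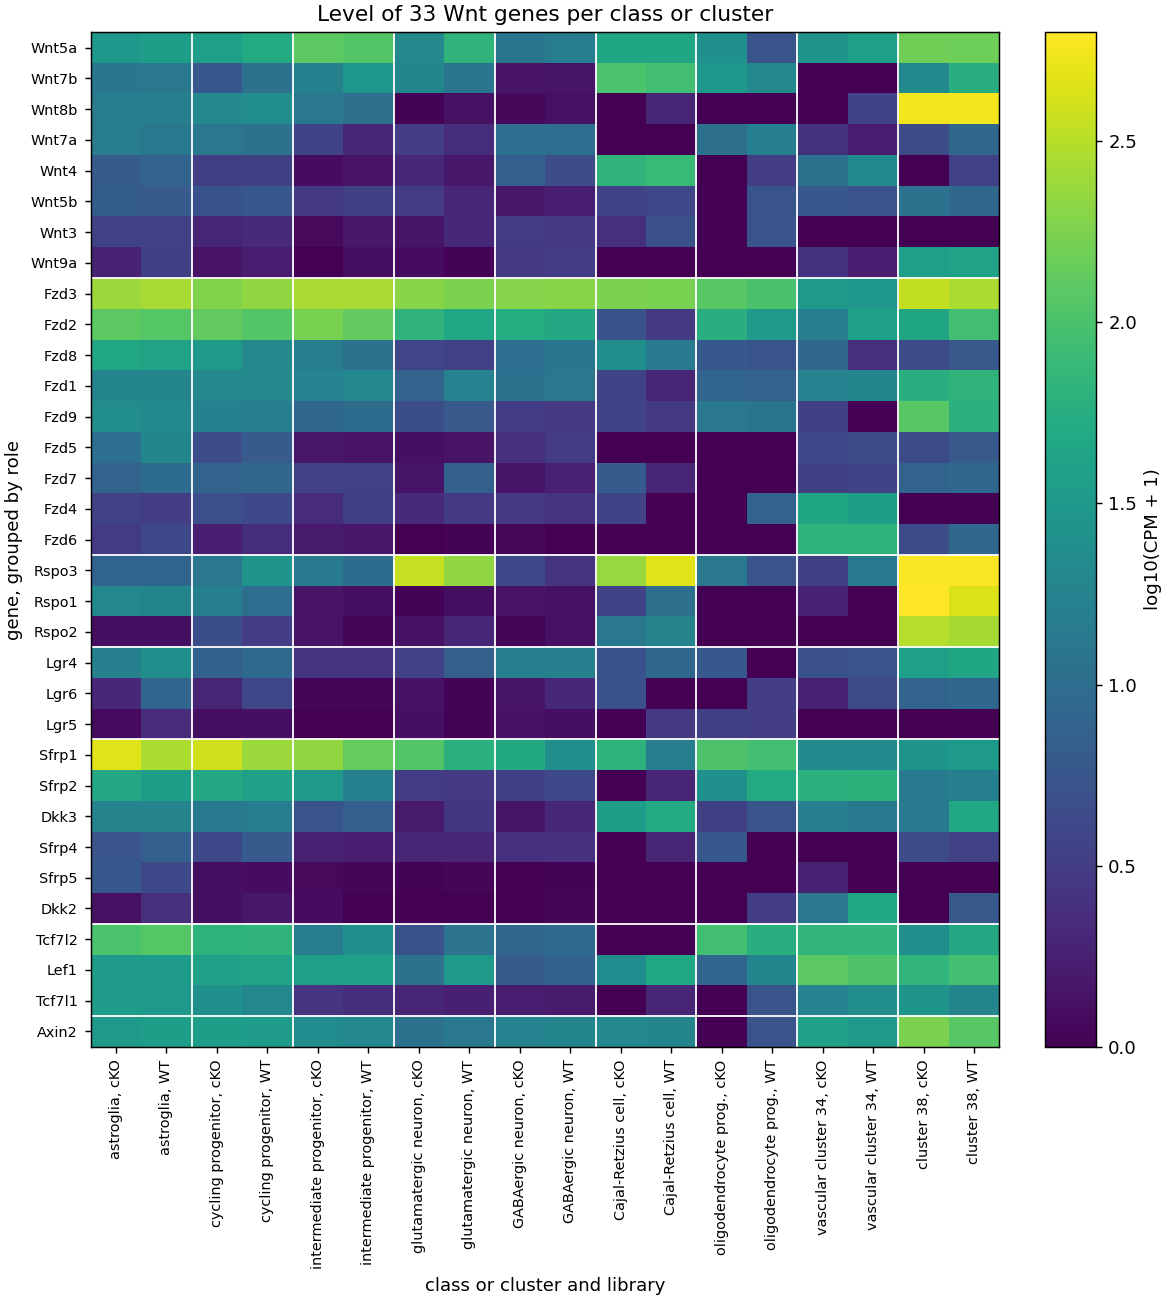
Level of the 33 Wnt genes as log10(CPM + 1), with genes down the page grouped by role and, across it, 9 classes or clusters, each with cKO left of WT. Most pairs of columns have the same colours; the brightest cells are Rspo1, Rspo3 and Wnt8b in cluster 38, Rspo3 in glutamatergic neurons and Cajal-Retzius cells, and Sfrp1 in astroglia and cycling progenitors.

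Although most highest classes were shared, single genes differed by class. In astroglia 6 of 30 compared Wnt genes were past the fold, beside 8.05% of all 12529 genes. Sfrp1 and Sfrp5 were higher in cKO (beside 1.93% of all genes), and Fzd5, Lgr6, Lgr4 and Wnt9a lower (beside 6.11%). In cycling progenitors 9 of 27 were past the fold, beside 4.63% of all genes. Rspo1, Rspo2, Sfrp1 and Fzd8 were higher in cKO (beside 1.29%) and Fzd5, Lgr6, Rspo3, Sfrp4 and Wnt7b lower (beside 3.34%). In intermediate progenitors these were 4 of 16, beside 7.33%, with Sfrp1 and Sfrp2 higher (beside 3.36%) and Wnt7b and Tcf7l2 lower (beside 3.97%). In glutamatergic neurons they were 11 of 17, beside 11.1%. Sfrp1, Rspo3, Wnt7b and Wnt7a were higher (beside 3.84%) and Fzd7, Fzd1, Fzd4, Lgr4, Lef1, Tcf7l2 and Wnt5a lower (beside 7.26%). In GABAergic neurons they were 4 of 20, beside 4.55%, with Sfrp1, Rspo3 and Wnt4 higher (beside 3.21%) and Fzd5 lower (beside 1.33%). The median log2 ratio of the compared Wnt genes was 0.00 in astroglia, where that of all genes was -0.04. It was -0.02 in cycling progenitors (all genes -0.03), 0.11 in intermediate progenitors (all genes -0.02), -0.26 in glutamatergic neurons (all genes -0.02) and -0.06 in GABAergic neurons (all genes 0.01). The shares are descriptions of 2 libraries, and the glutamatergic count carries the split of clusters given above. With the unnamed clusters added, 10 of 19 compared genes were past the fold in glutamatergic neurons, of which 7 were among the 11. Rspo3, Wnt7b, Fzd1 and Fzd4 were no longer past it, and Fzd9, Dkk3 and Wnt5b were. The share of all genes past the fold was not computed with these clusters added, so this count has no background beside it.

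**Figure D2:**
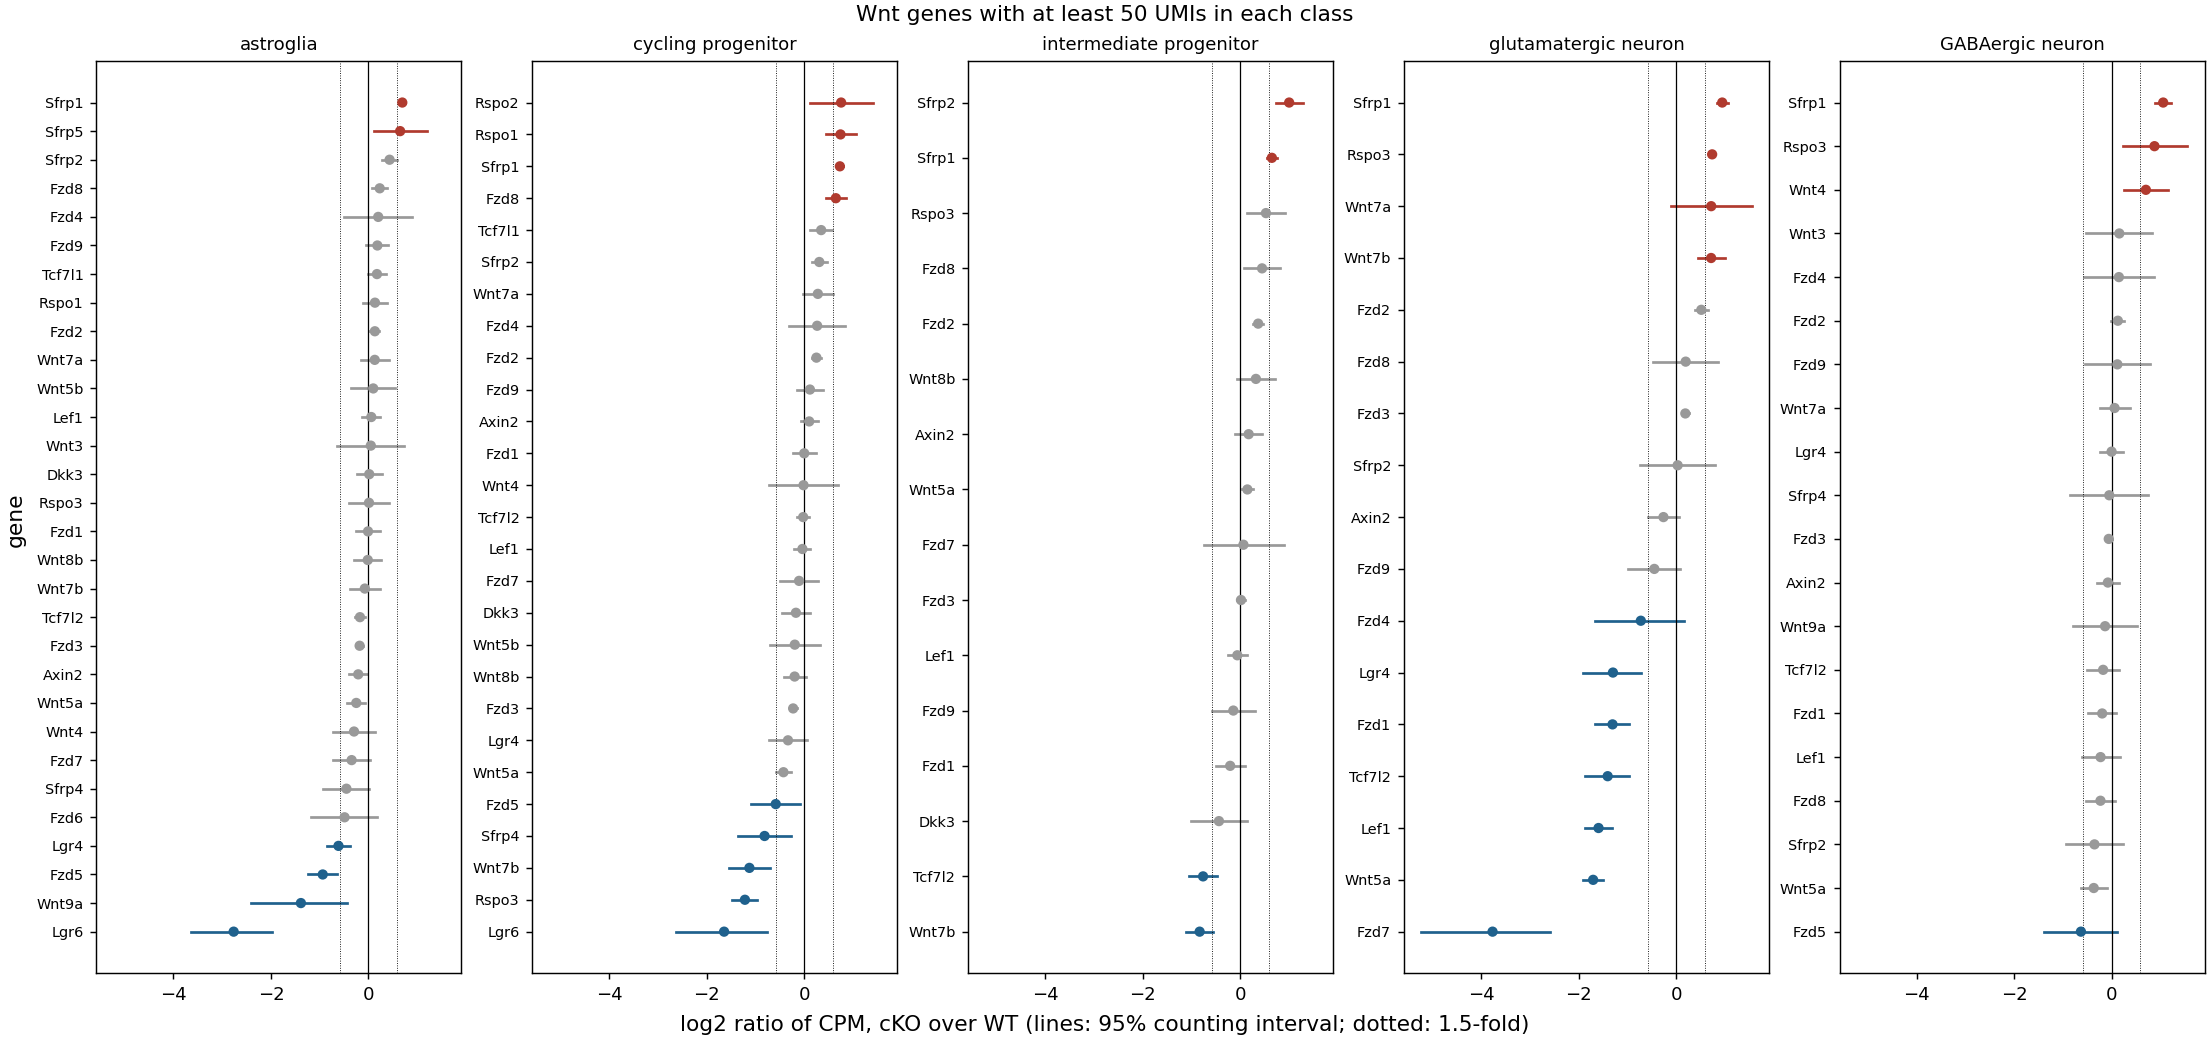
Log2 ratio of CPM, cKO over WT, of each Wnt gene with at least 50 UMIs in a class (points, with 95% counting intervals as lines), 1 panel per class; red and blue points are past 1.5-fold upward and downward, marked by dotted lines. Sfrp1 is past the fold upward in all 5 panels, and the glutamatergic panel has the most points outside the dotted lines.

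Among the ligands, Wnt5a, which acts mainly through beta-catenin-independent branches, was the most abundant in intermediate progenitors, at 122 CPM in cKO and 111 CPM in WT (ratio 1.11, 1.02 to 1.20). It was at 37.4 CPM in cKO and 50.4 CPM in WT cycling progenitors, and at 29.9 CPM in cKO and 35.5 CPM in WT astroglia. Its difference was in glutamatergic neurons, where it was at 19.8 CPM in cKO and 64.4 CPM in WT, a ratio of 0.307 (0.268 to 0.352). All 3 cKO clusters were low, with 24.8, 15.8 and 13.1 CPM in clusters 11, 12 and 25, whereas WT clusters 15, 16 and 18 held 74.5, 41.3 and 79.4 CPM. Unnamed cluster 14 held 44.4 CPM in its cKO cells, within the WT range, and with the unnamed clusters added the ratio was 0.537. Unnamed cluster 20, marked by Ebf1 and Lhx9 and held by 306 cKO and 137 WT cells, had a Wnt5a ratio of 0.679 (0.569 to 0.810). Astroglia clusters differed: Wnt5a was at 30.8 CPM in cKO and 52.9 CPM in WT cells of cluster 5 (ratio 0.581) and at 22.1 CPM in cKO and 32.5 CPM in WT cells of cluster 9 (ratio 0.679), which both express pallial Emx1. It was at 38.6 CPM in cKO and 14.5 CPM in WT cells of cluster 13, which expresses septal Six3 (ratio 2.67, 1.72 to 4.25).

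Wnt7b, a canonical ligand, had ratios on opposite sides of 1 along the neuronal lineage. It was at 4.69 CPM in cKO and 10.2 CPM in WT cycling progenitors (ratio 0.458, 0.341 to 0.609), and at 15.9 CPM in cKO and 28.3 CPM in WT intermediate progenitors (ratio 0.562, 0.464 to 0.678). In glutamatergic neurons it was instead at 18.2 CPM in cKO and 11.1 CPM in WT (ratio 1.64, 1.36 to 1.995). There it depended on the cluster, with 3.50, 37.997 and 22.7 CPM in cKO clusters 11, 12 and 25 and with 31.1, 3.58 and 2.91 CPM in WT clusters 15, 16 and 18, so that the ranges overlapped, and the ratio was 1.24 with the unnamed clusters added. In astroglia, Wnt7b was at 11.7 CPM in cKO and 12.3 CPM in WT, which joined unlike clusters: pallial cluster 9 had 4.64 CPM in cKO and 15.8 CPM in WT (ratio 0.294, 0.166 to 0.501), and septal cluster 13 had 41.8 CPM in cKO and 16.03 CPM in WT (ratio 2.61, 1.72 to 4.06). Pallial cluster 5 had too few Wnt7b UMIs to be compared, at 3.56 CPM in cKO and 10.2 CPM in WT. Cajal-Retzius cells, early neurons of the marginal zone that secrete reelin, had the highest Wnt7b of any named class, at 101 CPM in 64 cKO cells and 88.3 CPM in 74 WT cells.

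Wnt8b, a ligand of the dorsal midline, was at 19.9 CPM in cKO and 22.9 CPM in WT cycling progenitors, at 14.4 CPM in cKO and 14.6 CPM in WT astroglia, and at 12.1 CPM in cKO and 9.71 CPM in WT intermediate progenitors. Only astroglia cluster 3, marked by Foxj1 and Aldh1l1, and cycling cluster 10 had intervals below 1 among the 9 clusters in which Wnt8b was compared. In cluster 3 it was at 5.65 CPM in cKO and 18.4 CPM in WT (ratio 0.308, 0.172 to 0.521). Wnt8b ratios were above 1 in 5 of the 9 clusters, with the interval above 1 in intermediate progenitor cluster 7, at 32.4 CPM in cKO and 20.2 CPM in WT (ratio 1.61, 1.20 to 2.16). Wnt4 was at 5.81 CPM in cKO and 3.58 CPM in WT GABAergic neurons (ratio 1.62, 1.19 to 2.23), and at 65.3 CPM in cKO and 78.3 CPM in WT Cajal-Retzius cells. Wnt7a did not exceed 13.8 CPM in any of the 5 classes, and its glutamatergic ratio of 1.65 had an interval of 0.925 to 2.95, which includes 1. Wnt9a was at 0.911 CPM in cKO and 2.38 CPM in WT astroglia (ratio 0.383), too few UMIs for a ratio in any astroglia cluster. Wnt5b, at most 5.75 CPM, and Wnt3, at most 2.52 CPM in the 5 classes, were not past the fold in a class where they could be compared. With the unnamed clusters added, Wnt5b in glutamatergic neurons was at 1.95 CPM in cKO and 0.983 CPM in WT (ratio 1.99, 1.13 to 3.61), and in unnamed cluster 8 it was at 13.6 CPM in cKO and 6.91 CPM in WT (ratio 1.97).

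Rspo3, a secreted enhancer of Wnt signalling, had its highest level of the 5 classes in neurons. Glutamatergic neurons held 356 CPM in cKO and 213 CPM in WT, a ratio of 1.67 (1.60 to 1.74), against at most 27.3 CPM in the other 4 classes of either library. A Rspo3 UMI was found in 73.8% of cKO and 55.5% of WT glutamatergic cells, which became 54.0% and 31.1% when every cell was thinned to 3000 UMIs. GABAergic neurons, which gave 1.31% in cKO and 1.40% in WT at median depths of 7376 and 8299 UMIs, show the background of such shares. By cluster, Rspo3 was at 499, 268 and 165 CPM in cKO clusters 11, 12 and 25, at 147 CPM in cKO cells of unnamed cluster 14, and at 42.4, 241 and 320 CPM in WT clusters 15, 16 and 18. These ranges overlapped, and with the unnamed clusters added the ratio was 1.24 (1.19 to 1.29).

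In clusters that both libraries held, Rspo3 was mostly lower in cKO. Of 13 clusters compared, 10 had a ratio below 1, in 9 of them with the whole interval below 1, and 1 had an interval above 1. Cycling progenitors were at 11.7 CPM in cKO and 27.3 CPM in WT (ratio 0.430, 0.358 to 0.513), and the Rspo3 ratio was below 1 in cycling clusters 10, 17, 24, 26 and 31. Cajal-Retzius cells were at 231 CPM in cKO and 466 CPM in WT (ratio 0.496, 0.414 to 0.593), and unnamed cluster 20 at 33.2 CPM in cKO and 141 CPM in WT (ratio 0.235, 0.179 to 0.306). The exception was intermediate progenitor cluster 7, led by Neurog2 and Eomes, with 27.1 CPM in cKO and 13.2 CPM in WT (ratio 2.06, 1.46 to 2.93). GABAergic neurons were at 3.18 CPM in cKO and 1.73 CPM in WT (ratio 1.83, 1.18 to 2.90), a difference that the shares of cells given above did not show. Free RNA had Rspo3 at 34.02 CPM in cKO and 45.3 CPM in WT. Subtracting it at its share of the UMIs gave a GABAergic Rspo3 ratio of 3.82. That share depends on a haemoglobin limit, given with Sfrp1 below.

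**Figure D3:**
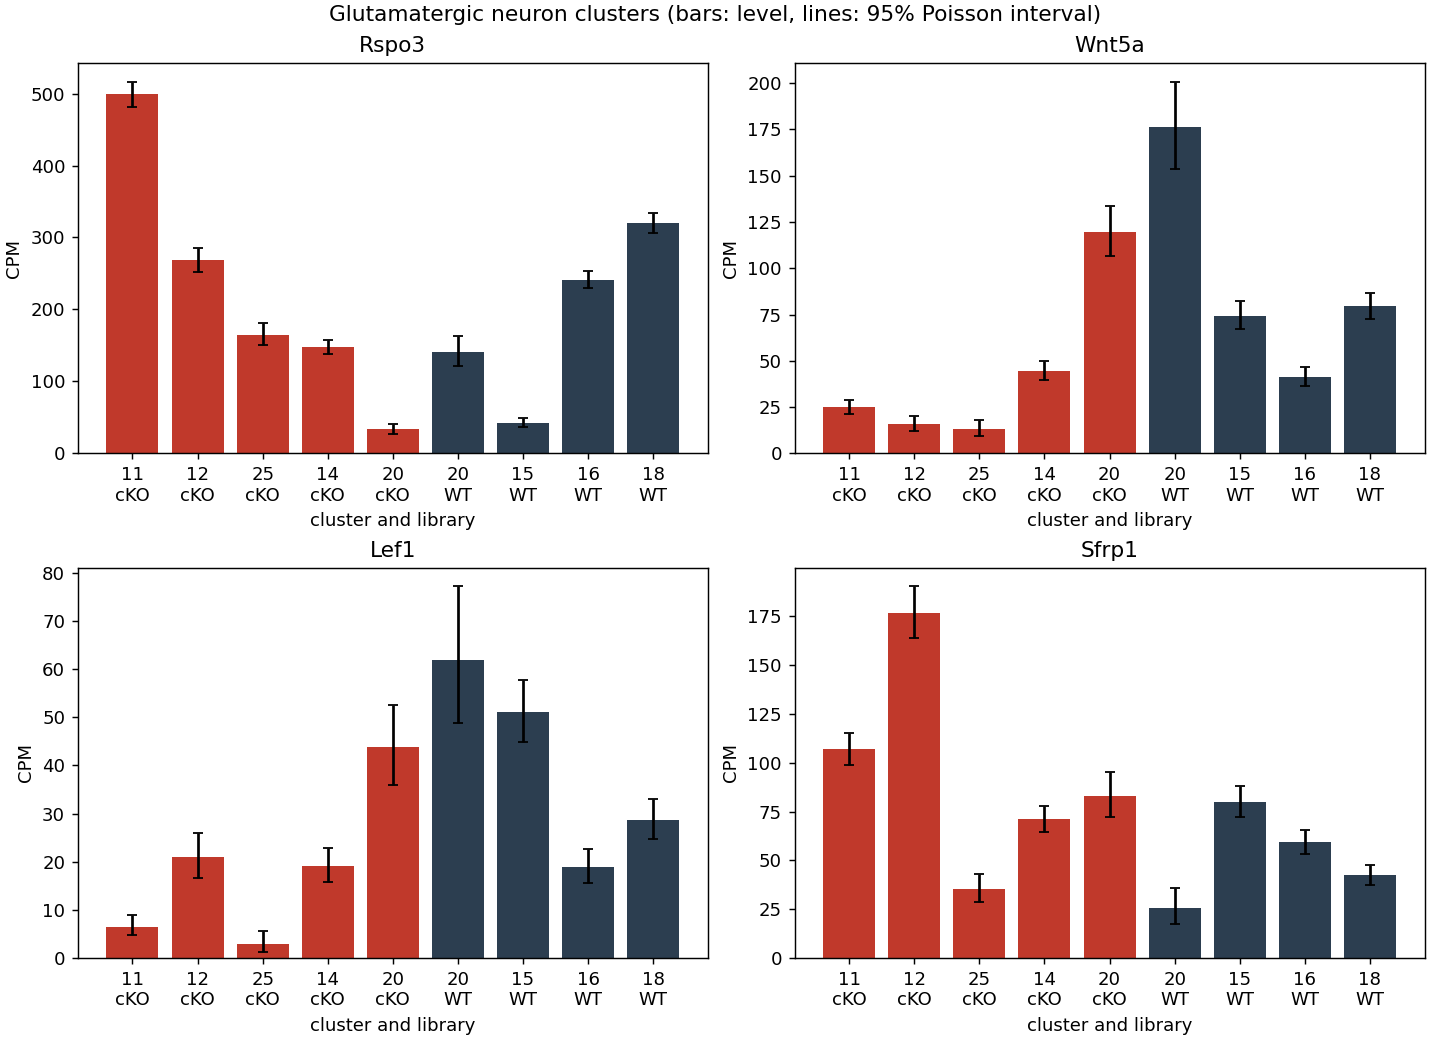
Level (CPM, bars, with 95% Poisson intervals) of Rspo3, Wnt5a, Lef1 and Sfrp1 in the glutamatergic clusters and in unnamed clusters 14 and 20, with cKO bars in red left of WT bars in dark blue; clusters 11, 12, 25 and 14 are shown for cKO only and clusters 15, 16 and 18 for WT only, because the other library had at most 17 cells there. Wnt5a was lower in cKO clusters 11, 12 and 25 than in each WT cluster, whereas Rspo3 ranges overlapped between the libraries.

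Of the other R-spondins, Rspo1 was highest in astroglia and Rspo2 in cycling progenitors among the 5 classes. Both were far higher in unnamed cluster 38, described further on, which is in no class. Rspo1 was at 15.3 CPM in cKO and 9.18 CPM in WT cycling progenitors (ratio 1.67, 1.35 to 2.07, and 1.13 at 3000 UMIs per cell), and at 19.2 CPM in cKO and 17.5 CPM in WT astroglia. Its ratio was above 1 in all 8 clusters in which it was compared, with the interval above 1 in 5. The astroglial values joined 13.2 CPM in cKO and 4.94 CPM in WT for pallial cluster 5 (ratio 2.67, 1.52 to 4.93), and 35.5 CPM in cKO and 17.1 CPM in WT for cluster 23, which is led by Fgf17 and Fgf8 (ratio 2.08). Rspo2 was at 3.69 CPM in cKO and 2.19 CPM in WT cycling progenitors (ratio 1.69, 1.08 to 2.65). Among the cycling clusters, Rspo2 could be compared in cluster 24 alone, at 18.8 CPM in cKO and 3.00 CPM in WT. At 3000 UMIs per cell its class ratio was 0.947, on the other side of 1. That value rested on 22 UMIs, below the minimum of 50.

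The R-spondin receptors Lgr4 and Lgr6 were lower in cKO astroglia as a class, and less so within clusters. Lgr4 was at 15.7 CPM in cKO and 24.0 CPM in WT astroglia (ratio 0.653, 0.552 to 0.771), at 2.44 CPM in cKO and 5.99 CPM in WT glutamatergic neurons, and at 15.4 CPM in cKO and 15.4 CPM in WT GABAergic neurons. Lgr6 was at 1.05 CPM in cKO and 7.14 CPM in WT astroglia, a ratio of 0.147 (0.0798 to 0.253), and at 0.938 CPM in cKO and 2.94 CPM in WT cycling progenitors. Lgr6 was highest in a cluster that the libraries held unequally. Cluster 23 had 92 cKO cells and 277 WT cells, and its Lgr6 level was 11.02 CPM in cKO and 38.4 CPM in WT (ratio 0.287, 0.128 to 0.565). Cycling cluster 17, which also has Fgf17 and Fgf8 among its leading genes, had an Lgr6 level of 4.58 CPM in cKO and 11.4 CPM in WT (ratio 0.402, 0.193 to 0.775). So Lgr6 was lower in cKO within these clusters, though less than over the class, and with the astroglia clusters weighted equally the class ratio was 0.320. For Lgr4 the ratio was 0.795 (0.527 to 1.17) in cluster 23, 0.756 (0.577 to 0.990) in septal cluster 13 and 0.965 in cluster 3. With equal weights the astroglial Lgr4 ratio was 0.802, not past the fold, and it stayed past the fold in 5 of 11 alternatives. Lgr5, the third receptor, had at most 1.28 CPM in the 5 classes and was compared in none.

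Fzd5 shared this position with Lgr6. This Frizzled receptor was at 9.46 CPM in cKO and 18.1 CPM in WT astroglia (ratio 0.522, 0.423 to 0.642), at 3.62 CPM in cKO and 5.44 CPM in WT cycling progenitors, and at 1.36 CPM in cKO and 2.11 CPM in WT GABAergic neurons. It was nearly absent from pallial clusters 5 and 9, at most 1.16 CPM, and reached 40.4 CPM in cKO and 50.9 CPM in WT in cluster 23. Within clusters the ratio was below 1 in 5 of 5, between 0.644 and 0.895, with the interval below 1 in cluster 17 alone. Cluster 23 held 92 of 1619 cKO and 277 of 1658 WT astroglia. Whether this accounts for the class ratio was not tested. With the astroglia clusters weighted equally the Fzd5 ratio was 0.786, no longer past the fold.

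The sequences before the start of 3 of these genes are shown because Lgr6 and Fzd5 were the receptors lowest in cKO astroglia by ratio, and Wnt8b the ligand with the highest level in cluster 38, described further on. Each window runs from 250 bases before to 50 bases after the RefSeq transcription start on build GRCm38.p6 and is written 5′ to 3′ on the strand of the gene. Capitals mark CANNTG, the E-box, the general recognition sequence of E-proteins such as Tcf4. The Lgr6 window is chr1:135105227-135105526 on the minus strand, the Fzd5 window chr1:64737701-64738000 on the minus strand and the Wnt8b window chr19:44493222-44493521 on the plus strand.
Lgr6: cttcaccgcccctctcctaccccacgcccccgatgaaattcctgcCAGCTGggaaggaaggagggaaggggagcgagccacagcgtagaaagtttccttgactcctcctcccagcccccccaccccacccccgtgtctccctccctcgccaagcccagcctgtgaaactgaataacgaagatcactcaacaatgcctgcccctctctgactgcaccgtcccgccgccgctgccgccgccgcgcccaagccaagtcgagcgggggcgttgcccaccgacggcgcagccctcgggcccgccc
Fzd5: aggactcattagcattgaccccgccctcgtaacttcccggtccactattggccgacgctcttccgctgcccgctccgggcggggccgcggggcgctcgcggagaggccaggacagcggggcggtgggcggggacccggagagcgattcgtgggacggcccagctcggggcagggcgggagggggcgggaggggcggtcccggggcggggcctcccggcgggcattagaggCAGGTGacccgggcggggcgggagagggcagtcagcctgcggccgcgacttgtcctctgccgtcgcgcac
Wnt8b: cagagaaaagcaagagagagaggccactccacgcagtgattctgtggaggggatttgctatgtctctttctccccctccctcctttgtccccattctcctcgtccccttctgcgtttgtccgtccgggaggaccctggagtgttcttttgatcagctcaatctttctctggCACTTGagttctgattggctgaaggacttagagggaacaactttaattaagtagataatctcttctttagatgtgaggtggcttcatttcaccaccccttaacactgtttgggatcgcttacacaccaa
Each window held 1 match, CAGCTG 205 bases before the start of Lgr6, CAGGTG 20 bases before that of Fzd5 and CACTTG 79 bases before that of Wnt8b. The motif reads the same on both strands. It was found in 21 of the 33 Wnt genes that RefSeq windows cover, beside 72.31% of all 32851 windows. A gene was counted if any of its windows matched, whereas the share of all is per window. These 33 are not the 33 genes described 1 by 1: they include Wnt1 and Wnt10b and lack Sfrp1 and Rspo3. Holding 1 match does not set Lgr6, Fzd5 and Wnt8b apart. The Tcf and Lef motif CTTTGA, searched on both strands, does not overlap with the E-box and was found in 5 of the 33, beside 16% of all windows. A match is a run of letters and not a measured binding site.

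The abundant Frizzled receptors differed little. Fzd3, known for axon guidance, was the most abundant in UMIs of all 33 genes and was at 278 CPM in cKO and 275 CPM in WT intermediate progenitors, 241 CPM in cKO and 273 CPM in WT astroglia, 184 CPM in cKO and 216 CPM in WT cycling progenitors, 198 CPM in cKO and 174 CPM in WT glutamatergic neurons, and 192 CPM in cKO and 201 CPM in WT GABAergic neurons. No class ratio of Fzd3 was past the fold. Among the 32 clusters compared, its ratio ran from 0.727 in cluster 39 to 1.61 in GABAergic cluster 35. Fzd2 was at 170 CPM in cKO and 132 CPM in WT intermediate progenitors (ratio 1.29, 1.20 to 1.38), 133 CPM in cKO and 112 CPM in WT cycling progenitors, 125 CPM in cKO and 114 CPM in WT astroglia, and 66.0 CPM in cKO and 46.2 CPM in WT glutamatergic neurons. Its ratio was small but above 1 in 19 of 22 clusters, in 11 of them with the interval above 1. Free RNA moved with it, at 44.9 CPM in cKO and 28.8 CPM in WT for Fzd2.

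Fzd8 was at 31.4 CPM in cKO and 20.1 CPM in WT cycling progenitors (ratio 1.56, 1.35 to 1.81) and at 46.4 CPM in cKO and 39.6 CPM in WT astroglia. The Fzd8 ratio was above 1 in 13 of 16 clusters compared, in 6 of them with the interval above 1. Pallial cluster 5 had 41.2 CPM in cKO and 25.6 CPM in WT (ratio 1.61, 1.23 to 2.11). Septal cluster 13 had higher levels, at 85.0 CPM in cKO and 96.2 CPM in WT, with cKO below WT. Fzd9 was at 23.2 CPM in cKO and 20.4 CPM in WT astroglia and past the fold in no class, but with the unnamed clusters added its glutamatergic ratio was 0.661 (0.477 to 0.911), past the fold. In glutamatergic neurons 3 Frizzled genes were past the fold downward. Fzd7 was at 0.457 CPM in cKO and 6.21 CPM in WT (ratio 0.0736, 0.0265 to 0.165). Unnamed cluster 14 held Fzd7 at 5.04 CPM in its cKO cells, and with the unnamed clusters added the Fzd7 ratio was 0.332. Fzd1 was at 6.71 CPM in cKO and 16.6 CPM in WT (ratio 0.405, 0.315 to 0.515, and 0.687 with the unnamed clusters added). Fzd4, best known in vessels, had a ratio of 0.605 with an interval of 0.314 to 1.12, and 1.01 with those clusters added. Fzd6 did not exceed 3.05 CPM in the 5 classes.

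Sfrp1, a secreted Wnt-binding protein, was higher in cKO nearly everywhere it was measured. It was at 461 CPM in cKO and 285 CPM in WT astroglia (ratio 1.62, 1.56 to 1.68), 391 CPM in cKO and 236 CPM in WT cycling progenitors (ratio 1.66), 214 CPM in cKO and 137 CPM in WT intermediate progenitors (ratio 1.57), 113 CPM in cKO and 58.5 CPM in WT glutamatergic neurons (ratio 1.92) and 49.9 CPM in cKO and 24.0 CPM in WT GABAergic neurons (ratio 2.08, 1.85 to 2.33). It was thus past the fold in all 5 classes, and no other Wnt gene was. These include the GABAergic neurons, which lie mostly outside the Emx1 lineage, though recombination in single cells was not measured. Of the 27 clusters in which Sfrp1 was compared, 25 had a ratio above 1 and 22 the whole interval above 1. The exceptions were septal astroglia cluster 13, with 359 CPM in cKO and 361 CPM in WT, and vascular cluster 34, with 20.4 CPM in cKO and 20.8 CPM in WT.

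The astroglial Sfrp1 ratio depended on how the clusters were weighted, and the cause of this was not tested. Pallial cluster 5 had 601 CPM in cKO and 466 CPM in WT, pallial cluster 9 had 634 CPM in cKO and 461 CPM in WT, and cluster 23 had 17.1 CPM in cKO and 14.2 CPM in WT. With the astroglia clusters weighted equally the Sfrp1 ratio was 1.25, below the fold. In GABAergic neurons equal weights gave 1.79. The glutamatergic Sfrp1 ranges overlapped, with 107, 177 and 35.5 CPM in cKO clusters 11, 12 and 25 and with 79.7, 59.2 and 42.3 CPM in WT clusters 15, 16 and 18. Free RNA had Sfrp1 at 73.7 CPM in cKO and 44.1 CPM in WT, a difference in the same direction. Subtracting it left a GABAergic ratio of 2.104. The subtracted shares, 1.19% in cKO and 2.24% in WT neurons, were estimated from haemoglobin transcripts. Only neurons with at most 0.1% haemoglobin UMIs (3953 cKO and 3589 WT) entered the estimate, so the shares depend on this limit. A Sfrp1 UMI was found in 25.8% of cKO and 14.8% of WT GABAergic neurons, and in 12.8% of cKO and 6.21% of WT ones at 3000 UMIs per cell. Microglia or macrophages, which should lack Sfrp1, gave 1 of 51 cKO cells and 4 of 45 WT cells, or 1.96% and 8.89%, at median depths of 8234 and 10304 UMIs.

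**Figure D4:**
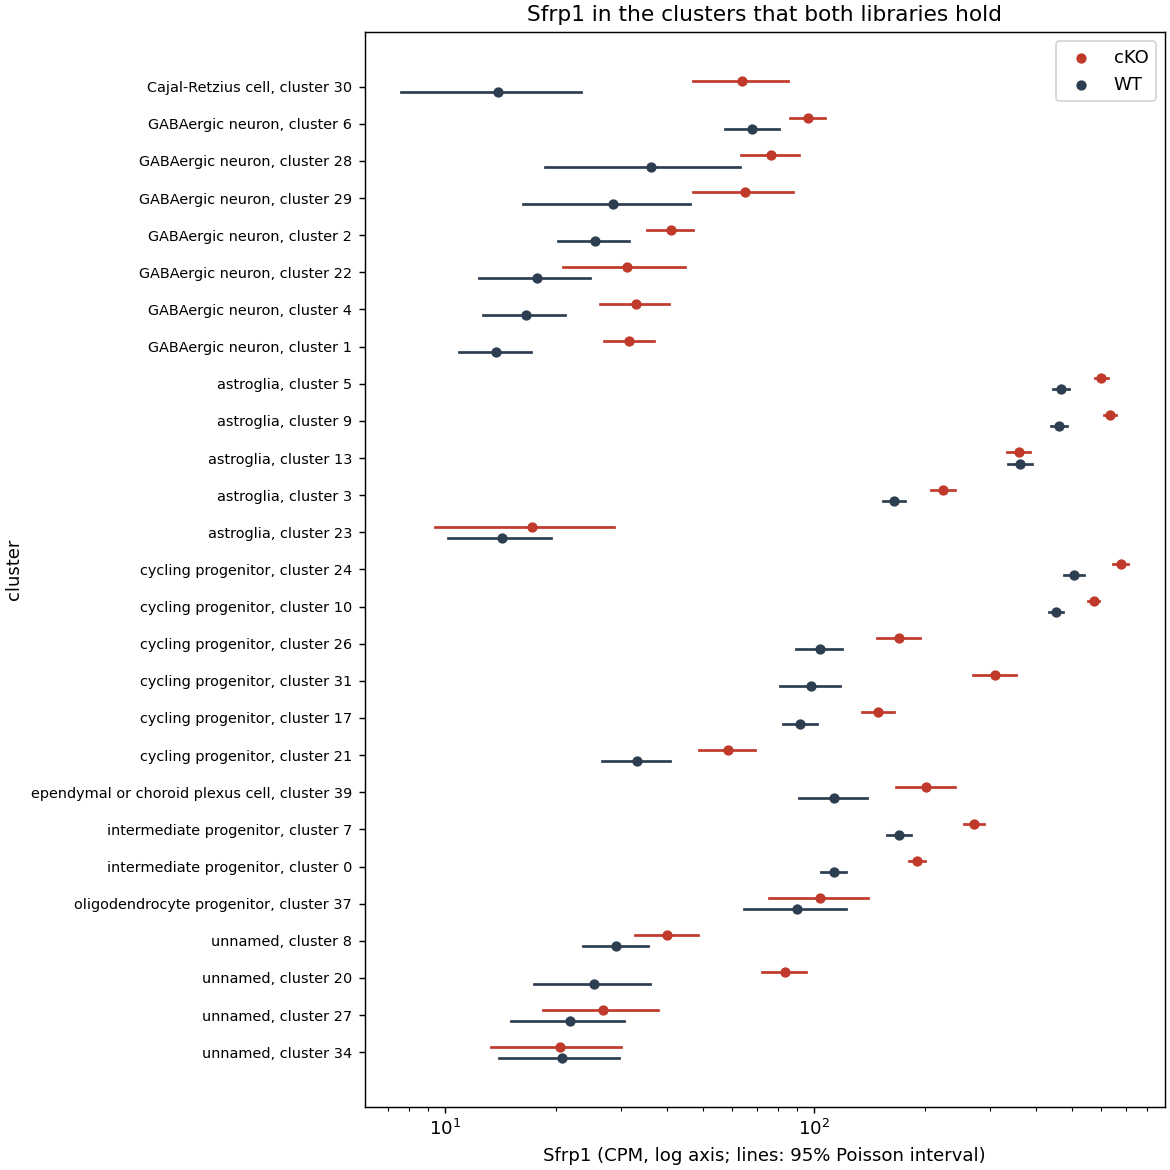
Sfrp1 level (CPM, log axis, with 95% Poisson intervals as lines) in the 27 clusters with at least 20 cells in each library and at least 50 Sfrp1 UMIs, cKO in red drawn above WT in dark blue. The cKO point lies to the right in 25 of 27 clusters, and the points coincide in astroglia cluster 13 and in cluster 34.

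The other secreted modulators were more local. Sfrp2 was at 31.9 CPM in cKO and 15.9 CPM in WT intermediate progenitors (ratio 2.004, 1.66 to 2.43), in cluster 0 at 35.1 CPM in cKO and 16.4 CPM in WT and in cluster 7 at 24.3 CPM in cKO and 15.2 CPM in WT. In astroglia, Sfrp2 was at 48.4 CPM in cKO and 35.9 CPM in WT, and in cycling progenitors at 47.7 CPM in cKO and 38.6 CPM in WT, neither past the fold. Sfrp5 was highest in astroglia among the 5 classes, at 4.98 CPM in cKO and 3.17 CPM in WT. It could be compared in 1 cluster alone, septal astroglia cluster 13, at 26.4 CPM in cKO and 6.72 CPM in WT (ratio 3.92, 2.12 to 7.80). All cells together held 84 cKO and 62 WT UMIs of Sfrp5. Sfrp4 was at 3.02 CPM in cKO and 5.31 CPM in WT cycling progenitors (ratio 0.568, 0.387 to 0.825). Dkk3, a Dickkopf-related protein without a clear role at the co-receptor, was at 16.96 CPM in cKO and 16.8 CPM in WT astroglia. In single clusters Dkk3 was lower in cKO, with a ratio below 1 in 8 of 8, but the interval was below 1 only in cluster 17, at 5.35 CPM in cKO and 11.1 CPM in WT. Dkk2 was confined mostly to vascular cluster 34, which joins endothelial and mural markers, at 11.8 CPM in 38 cKO cells and 45.0 CPM in 56 WT cells (ratio 0.262).

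Of the nuclear factors, Tcf7l2 was highest in astroglia, at 101 CPM in cKO and 114 CPM in WT (ratio 0.886, 0.826 to 0.9496), above all in septal cluster 13, with 245 CPM in cKO and 281 CPM in WT. Intermediate progenitors had 14.6 CPM in cKO and 24.7 CPM in WT (ratio 0.590, 0.482 to 0.720). This came from cluster 0, the more neuron-like one by its gene Slc17a6, at 15.996 CPM in cKO and 33.2 CPM in WT (ratio 0.482, 0.383 to 0.605), while cluster 7 had 11.2 CPM in cKO and 12.7 CPM in WT. The Tcf7l2 ratio of the class was 0.946 at cluster resolution 0.5 and 0.855 with doublets kept, past the fold in neither. In glutamatergic neurons Tcf7l2 was at 4.04 CPM in cKO and 10.7 CPM in WT. There it came from 1 cluster per library, cKO cluster 12 at 11.2 CPM and WT cluster 15 at 34.7 CPM, and at cluster resolution 0.5 the ratio was 1.01.

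Lef1, an activator at Wnt targets, was at 33.8 CPM in cKO and 32.5 CPM in WT astroglia, 38.9 CPM in cKO and 40.0 CPM in WT cycling progenitors, and 37.6 CPM in cKO and 39.3 CPM in WT intermediate progenitors. Within clusters, the Lef1 ratio was below 1 in 15 of the 20 compared, in 6 of them with the interval below 1. No interval was above 1, and the lowest ratio, 0.185, was in astroglia cluster 23. Among the 5 classes, Lef1 was past the fold in glutamatergic neurons alone. Glutamatergic neurons held Lef1 at 10.4 CPM in cKO and 31.2 CPM in WT (ratio 0.332, 0.273 to 0.401, and 0.508 with the unnamed clusters added). The cKO clusters 11, 12 and 25 were at 6.53, 20.9 and 2.84 CPM, and WT clusters 15, 16 and 18 at 51.0, 18.9 and 28.6 CPM, so that cluster 12 overlapped with cluster 16. Lef1 was also lower in Cajal-Retzius cells, at 21.8 CPM in cKO and 46.6 CPM in WT (ratio 0.467, 0.247 to 0.839). Tcf7l1, mostly a repressor of Wnt targets, was at 34.7 CPM in cKO and 30.8 CPM in WT astroglia and at 24.7 CPM in cKO and 19.4 CPM in WT cycling progenitors, not past the fold. Axin2, the target often read as an output of the pathway, was past the fold in no class. It was at 31.3 CPM in cKO and 36.3 CPM in WT astroglia (ratio 0.864, 0.763 to 0.979), 36.5 CPM in cKO and 34.1 CPM in WT cycling progenitors, 22.004 CPM in cKO and 19.5 CPM in WT intermediate progenitors, 10.1 CPM in cKO and 12.1 CPM in WT glutamatergic neurons, and 16.4 CPM in cKO and 17.3 CPM in WT GABAergic neurons. Among astroglia clusters, Axin2 was lower in cluster 23, at 18.4 CPM in cKO and 36.3 CPM in WT (ratio 0.506, 0.273 to 0.875), and in cluster 3 (ratio 0.723).

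Cluster 38, with 31 cKO and 37 WT cells, was singled out after its values were seen, for the highest R-spondin and Wnt8b levels among the clusters shown here. Its markers were nearest to astroglia, but its 10 leading genes held no astroglia marker and included Msx1 of the cortical hem list, so it stayed unnamed. It had Rspo1 at 630 CPM in cKO and 445 CPM in WT, Rspo2 at 310 CPM in cKO and 264 CPM in WT, and Rspo3 at 610 CPM in cKO and 609 CPM in WT. Wnt8b was at 562 CPM in cKO and 558 CPM in WT, and Wnt5a at 153 CPM in cKO and 151 CPM in WT. These ligand levels were nearly the same in the cKO and WT cells. Wnt3a, a ligand of the hem with few UMIs elsewhere, was at 47.7 CPM in cKO and 27.7 CPM in WT on 14 and 11 UMIs, and Wnt9a at 37.5 CPM in cKO and 40.2 CPM in WT. Axin2 was at 177 CPM in cKO and 118 CPM in WT (ratio 1.499, 0.991 to 2.27), above its level in every one of the 5 classes. Rspo1 alone among these genes had an interval above 1, with a ratio of 1.42 (1.15 to 1.75). Sfrp1, at 27.3 CPM in cKO and 32.7 CPM in WT, was low here beside the neighbouring pallial astroglia.

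**Figure D5:**
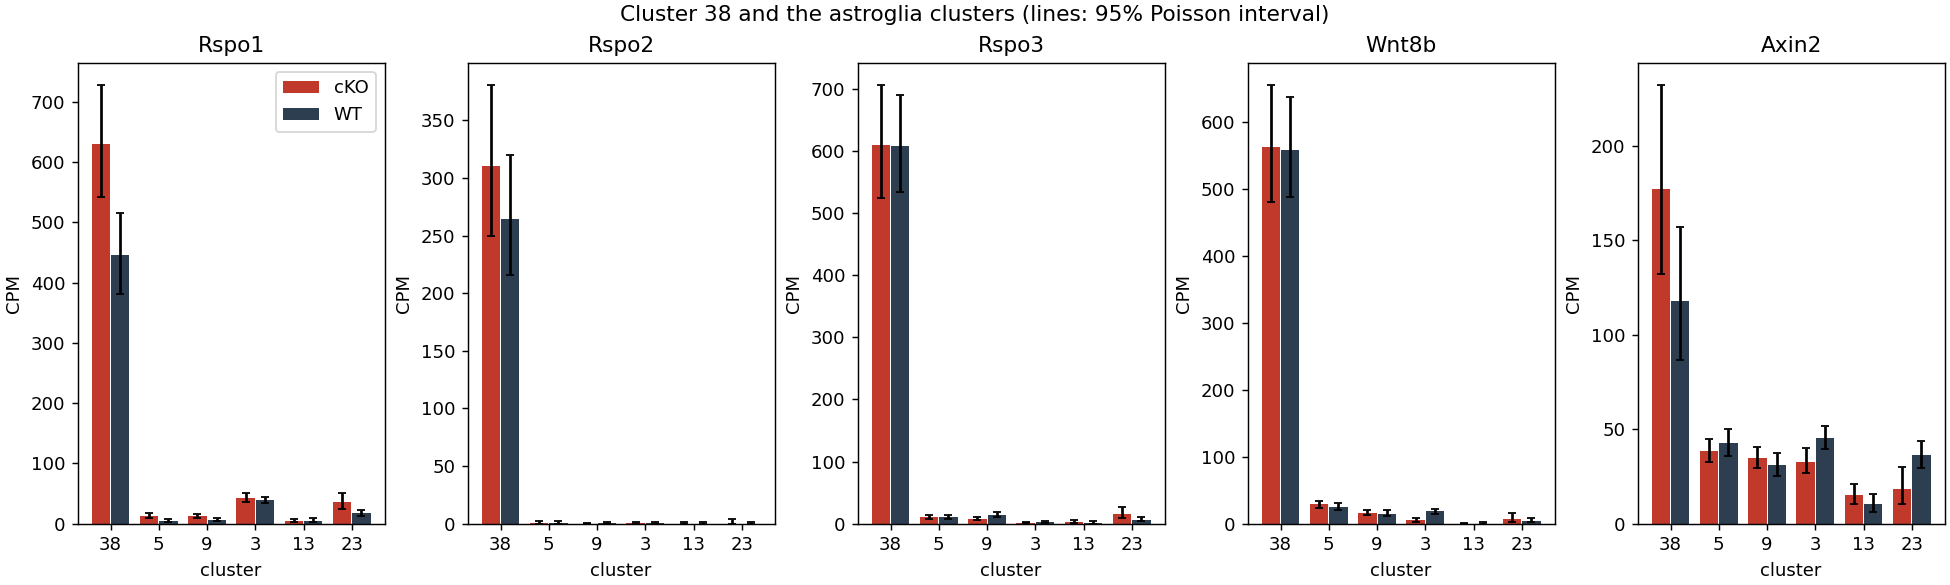
Level (CPM, bars from 0, with 95% Poisson intervals) of Rspo1, Rspo2, Rspo3, Wnt8b and Axin2 in cluster 38 and in astroglia clusters 5, 9, 3, 13 and 23, with cKO in red left of WT in dark blue. Cluster 38 stands above the astroglia clusters in all 5 panels in both libraries, and its Rspo3 and Wnt8b bars differ between cKO and WT by less than their intervals.

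The wider pathway was described with 75 other genes, among them co-receptors, intracellular components and feedback inhibitors. Of those with at least 50 UMIs in a class, 3 were past the fold upward and 8 downward among 66 in astroglia, 0 and 5 among 65 in cycling progenitors, 1 and 4 among 54 in intermediate progenitors, 2 and 9 among 54 in glutamatergic neurons, and 4 and 0 among 55 in GABAergic neurons. The shares of all genes past the fold upward and downward were 1.93% and 6.11%, 1.29% and 3.34%, 3.36% and 3.97%, 3.84% and 7.26%, and 3.21% and 1.33% in these classes. Those named had at least 20 CPM in 1 library. Sulf2, an extracellular sulfatase that modulates Wnt binding to heparan sulfate, was at 14.6 CPM in cKO and 24.0 CPM in WT astroglia and at 44.3 CPM in cKO and 24.7 CPM in WT GABAergic neurons (ratio 1.80). Nkd1, a feedback inhibitor of Dishevelled, was at 15.6 CPM in cKO and 23.7 CPM in WT cycling progenitors. Lypd6, known in zebrafish as an enhancer of Wnt signalling at the co-receptor, was at 9.62 CPM in cKO and 20.04 CPM in WT intermediate progenitors. In glutamatergic neurons Ctnnbip1, which keeps beta-catenin from Tcf factors, was at 201 CPM in cKO and 313 CPM in WT, and Tnfrsf19, a Wnt target in other tissues, at 14.6 CPM in cKO and 24.4 CPM in WT.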

How the data were processed

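Raw UMI counts for every gene and barcode, empty droplets included, are what the authors deposited. Per the file headers Cell Ranger 7.1.0 wrote them, while Cell Ranger 2.1.1 and mm10 stand in the submitters' processing notes. Annotation release and intron setting are not given in the sources used here. Everything else was computed from these counts.

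Cells were barcodes with UMIs of at least the percentile 99 of the 5000 largest totals divided by 10 (3341 in cKO, 3348 in WT), 500 genes or more and no more than 10% mitochondrial UMIs. Scrublet, run on each library in scanpy 1.11.5 with 6% doublets assumed, removed 526 cKO (4.93%) and 330 WT (3.68%) cells. All cells were then clustered jointly (2000 variable genes, 30 components, Leiden resolution 1, leidenalg 0.10.2), leaving out the Wnt genes, the other listed pathway genes, Tcf4 and the mitochondrial, ribosomal, haemoglobin and sex-linked genes. To be named, a cluster needed at least 3 markers of a class, each detected in 20% of its cells and 1.5-fold over other cells. Unnamed clusters, 16.2% of cKO and 12.5% of WT cells, were in no class. UMIs were summed per library and class. CPM, ratios, log2 ratios and percents come from these sums. The 75 other pathway genes were named where past 1.5-fold with at least 50 UMIs and 20 CPM. Wnt genes with at least 20 CPM in a class have values given for some or all of their classes. The calculation of the ratios was checked on simulated data, which does not test the limits set by 1 library per genotype. Free RNA came from droplets with 10 to 100 UMIs. Its share of neuron UMIs was estimated from haemoglobin transcripts, only in neurons with at most 0.1% haemoglobin UMIs. RefSeq windows covered 33 of the 48 genes. The genes and lists were chosen with earlier results of these data known.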

Additional observations from a re-analysis of the deposited data

Results flagged for a closer look

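For 2 genes, the cKO over WT ratio passed 1.5-fold in opposite directions in different classes. Rspo3 had a ratio of 1.83 in GABAergic neurons and of 1.67 in glutamatergic neurons, but of 0.43 in cycling progenitors. Wnt7b had a ratio of 1.64 in glutamatergic neurons, but of 0.458 in cycling progenitors and of 0.562 in intermediate progenitors. With 1 library per genotype, these differences between classes were not tested. The glutamatergic values set different clusters of each library against each other. The GABAergic Rspo3 ratio was 3.82 with free RNA subtracted, at a share that depends on the haemoglobin limit. At 3000 UMIs per cell it was 1.21, on 29 UMIs and so below the minimum of 50.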

How the results depend on the processing

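Of the 34 ratios past the fold in a class, 31 kept their side of 1 under every alternative that gave a value, and 10 stayed past the fold in all. The 3 that crossed 1 included, in glutamatergic neurons, Tcf7l2 (1.009 at cluster resolution 0.5) and Fzd4 (1.013 with unnamed clusters added). The other was Rspo2 in cycling progenitors (0.947 at 3000 UMIs per cell), on 22 UMIs and so below the minimum of 50. Counts past the fold changed most without a UMI minimum, to 16 in astroglia, 17 in cycling progenitors, 18 in intermediate progenitors, 27 in glutamatergic neurons and 16 in GABAergic neurons, where sparse genes enter. A pseudocount of 5 CPM gave 3, 3, 7 and 1 in astroglia, cycling progenitors, glutamatergic and GABAergic neurons. It left out Lgr4, Wnt9a and Sfrp5 in astroglia, Fzd5, Fzd8, Lgr6, Rspo1, Rspo2 and Sfrp4 in cycling progenitors, Lgr4, Wnt7a, Wnt7b and Fzd4 in glutamatergic neurons and Fzd5, Wnt4 and Rspo3 in GABAergic neurons. At 3000 UMIs per cell, where fewer genes reach the minimum, they were 3, 4 and 7 in astroglia, cycling progenitors and glutamatergic neurons. In intermediate progenitors the count was 7 with the cell minimum doubled, 7 at resolution 2 and 8 with clusters weighted equally. In GABAergic neurons it was 7 with at least 20 UMIs and 7 with equal weights. The share of all genes past the fold was computed in the main setting only, so the counts under the alternatives have no background beside them. Causes other than the number of genes compared were not tested. The count of genes with the same highest class, 27, ranged between 22 and 30. Equal weights gave no value for glutamatergic neurons, which have no cluster with 20 cells in both libraries, nor for the highest class. No paired analysis was possible because each genotype has 1 library. The limits are the single library per genotype, the glutamatergic clusters that the libraries do not share, and depth: genes under 50 UMIs in a class were not compared there.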
